A study of Lachancea kluyveri with 16 samples.

Results

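The comparison described here is that of Lachancea kluyveri cells lacking SEF1 with wild-type cells after growth on glycerol. It rests on the 8 arrays titled for glycerol medium, 4 of sef1Δ and 4 of the wild type (WT), out of 16 arrays, and on all 5316 genes of the array. L. kluyveri is a budding yeast whose lineage left that of Saccharomyces before the whole-genome duplication. WT was strain JYL1897 (MATa ura3), and sef1Δ was SkSef1KA1, in which the KanMX6 marker replaced SEF1 in JYL1897, so that both strains carried ura3 and the deletion was represented by 1 strain. Cultures grown overnight in YPD, a rich glucose medium, at 28 °C were diluted to 0.2 OD600 per ml in YPGly, rich medium with glycerol, and harvested after 5.5 h at 30 °C. RNA therefore came from cells recently moved from glucose to glycerol. According to the study sef1Δ grew slightly worse than WT on YPGly. Whether the differences below follow growth was not tested. The other 8 arrays, of the same strains in YPD, were used only to ask whether a difference also appeared on glucose.

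Sef1 is a transcription factor of the fungal zinc cluster family. Glycerol is a nonfermentable carbon source, so growth on it depends on respiration. Carbon reaches the tricarboxylic acid (TCA) cycle through pyruvate, and the cycle feeds electrons to the respiratory chain and precursors to biosynthesis. Cells without sugar also make hexoses by gluconeogenesis, in which pyruvate carboxylase and phosphoenolpyruvate carboxykinase turn pyruvate into phosphoenolpyruvate. In baker's yeast many genes for the uptake of alternative carbon sources are silent on glucose and are switched on once it is gone.

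Each value is a scaled level, the log2 of a probe's processed signal minus the log2 of that array's 75th percentile over gene probes, so that 0 marks the 75th percentile. Levels of different genes are not compared, since probes differ in brightness. A gene was tested (4255 of 5316) if its brighter probe reached a processed signal of 200 on every array of at least 1 group, and called at an adjusted p of at most 0.05 (limma, Benjamini-Hochberg over the genes tested) and a difference of at least 1.5-fold. The 75th percentile ran from 718 to 2407 on the 8 glycerol arrays and 97.3% to 98.7% of probes were well above background. WT arrays correlated with each other at 0.953 to 0.983 across probes. sef1Δ replicate 2 stood apart, at 0.915 to 0.943 with the other sef1Δ arrays, which reached 0.978 to 0.993 among themselves. In the other group WT replicate 4 was the highest of the 4 WT arrays for 20 of 21 TCA cycle genes, against 28.3% of all genes tested. Where leaving out 1 array moved a list's median by over 1.5 times, the largest move or the range is given. On both slides WT arrays lay in column 2 and sef1Δ arrays in column 4, so slide column and strain cannot be told apart. In both strains replicates 1 and 3 lay in row 1 and replicates 2 and 4 in row 2. The 75th percentile was 2234 and 2124 on WT replicates 1 and 3, and 1256 and 1239 on WT replicates 2 and 4. A split of WT replicates 2 and 4 from 1 and 3 therefore cannot be told apart from slide row or array brightness.

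SEF1 itself (SAKL0F12342g) was read first as a check of the strain labels. By its brighter probe the WT levels were −1.57, −1.59, −1.41 and −1.69 in replicates 1 to 4. In sef1Δ they were −9.18, −8.14, −5.90 and −9.38. All 4 sef1Δ arrays lay far below every WT array, and the highest of them, replicate 3, was the only 1 on which this probe was well above background, with a processed signal of 40.3. The other probe was well above background on the 4 WT arrays and on no sef1Δ array, which makes the transcript at least 50.8-fold lower (exact two-sided permutation test, p = 0.0286, the smallest p that 4 against 4 arrays allow). The bound sets the WT mean against the lowest signal that counted as well above background on each sef1Δ array. The labels of all 8 arrays therefore matched SEF1.

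A total of 52 genes were called, 1.22% of those tested. Of these 21 were lower in sef1Δ (0.494%) and 31 higher (0.729%). Of the lower genes 15 differed by at least 4-fold, as did 8 of the higher genes, and the medians were −2.38 and 1.38 on the log2 scale. For all 52 genes the 4 sef1Δ levels lay entirely outside the WT range, which held for 9.54% of all genes tested (3.5% with sef1Δ below and 6.04% with sef1Δ above). A call rests on a difference that is large beside the spread of these same arrays. The separation therefore nearly follows from the call and is no separate support for it. Levels that do not overlap must also differ with the same sign in all 4 pairs of arrays with the same replicate number. Over all genes tested 12.4% were lower and 18.5% higher in all 4 pairs. Deviations from the group means correlated between same-numbered arrays at 0.70 for replicate 2 and 0.69 for replicate 3. For replicates 1 (0.21) and 4 (0.29) the correlation was weaker. There the sef1Δ array correlated more with WT replicate 3 (0.28 and 0.32). A fit with the replicate number as a block was also made. It called 223 genes (5.24%), 89 lower and 134 higher, among them all 52. Genes that passed only in that fit are named as such below.

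**Figure D1:**
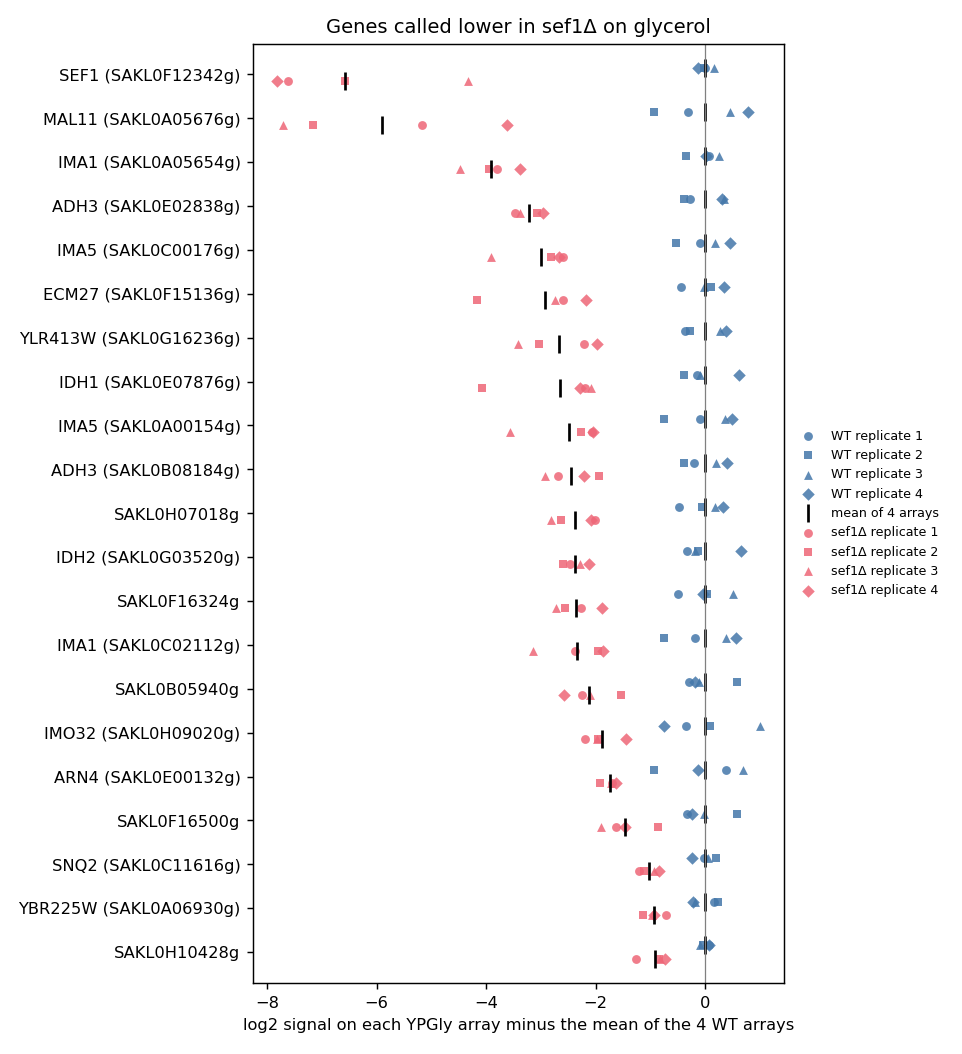
Array levels (log2) of genes called lower in sef1Δ on glycerol. Each point is 1 array, 4 of WT and 4 of sef1Δ per gene, with the mean as a line. For every gene shown the highest sef1Δ array lay below the lowest WT array.

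The TCA cycle was represented among the lower genes by both subunits of the NAD-dependent isocitrate dehydrogenase, which oxidizes isocitrate to 2-oxoglutarate. IDH1 (SAKL0E07876g) was at 2.34, 2.09, 2.39 and 3.10 in WT replicates 1 to 4, and at 0.29, −1.59, 0.40 and 0.20 in sef1Δ. IDH2 (SAKL0G03520g) was at 2.11, 2.32, 2.26 and 3.10 in WT and at −0.03, −0.15, 0.15 and 0.33 in sef1Δ. WT replicate 4 was the highest array for both, and for IDH1, but not for IDH2, sef1Δ replicate 2 lay well below its group. IDH1 was 6.30-fold lower (log2 −2.66, SE 0.43, adjusted p = 0.0155) and IDH2 5.16-fold lower (log2 −2.37, SE 0.23, adjusted p = 0.00116). Without sef1Δ replicate 2 the IDH1 difference was −2.18 (adjusted p = 0.00245), and its call was lost when WT replicate 1 was left out (adjusted p = 0.0597). IDH2 stayed called when each array was left out in turn, with a highest adjusted p of 0.00713.

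No other TCA cycle gene passed the test, so 2 of 21 members were called (9.52%, beside 1.22% of all genes tested), both lower, with a median of −0.37 for the list and 0.03 for all genes tested. With the replicate block 4 more were called lower, in a fit that called 2.09% of all genes lower. They were CIT3 (SAKL0B02926g, log2 −1.91), a citrate synthase isoform, KGD2 (SAKL0H15422g, −0.92), a subunit of 2-oxoglutarate dehydrogenase, the aconitase ACO1 (SAKL0H24046g, −0.79) and the NADP-dependent isocitrate dehydrogenase IDP1 (SAKL0H02860g, −0.69), with adjusted p of 0.0061, 0.012, 0.046 and 0.049 in that fit. CIT3 was at 2.93, 3.46, 3.27 and 4.78 in WT and at 2.09, 1.6, 1.01 and 2.11 in sef1Δ, so the groups did not overlap. At the other end of the list stood the peroxisomal malate dehydrogenase MDH3 (0.69) and the succinyl-CoA ligase subunits LSC2 (0.63) and LSC1 (0.45), none called. Values of the 4 succinate dehydrogenase subunits were −0.57 (SDH3), −0.26 (SDH1), −0.15 (SDH2) and 0.18 (SDH4), and the fumarase gene FUM1 was at −0.37, none of them called. The list's median moved with WT replicate 4. Within the replicate pairs it was 0.04, −0.34, −0.19 and −0.87, and without WT replicate 4 it was −0.19, with 3 genes called lower and 1 higher. Without sef1Δ replicate 2 it was −0.33, with 2 lower and 1 higher. Calls over all genes rose from 52 to 97 without WT replicate 4 and to 132 without sef1Δ replicate 2.

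Both orthologs of ADH3, the mitochondrial alcohol dehydrogenase of baker's yeast, fell. For SAKL0E02838g the WT levels were 3.32, 3.22, 3.93 and 3.91 and the sef1Δ levels 0.13, 0.52, 0.21 and 0.64. SAKL0B08184g was at 5.33, 5.15, 5.72 and 5.92 in WT and at 2.84, 3.59, 2.60 and 3.32 in sef1Δ. In neither gene did any sef1Δ array come near the WT range. The falls were 9.34-fold (log2 −3.22, SE 0.22, adjusted p = 0.00012) and 5.44-fold (log2 −2.44, SE 0.26, adjusted p = 0.00156), and the other probe of each gene gave −2.75 and −2.42. Among the 18 tested genes of ethanol, acetate and lactate metabolism these 2 were lower and 2 were higher (22.2%, beside 1.22% of all genes tested), with a median of −0.52. The median was −0.26 without sef1Δ replicate 2, −0.33 without sef1Δ replicate 3 and −0.28 without WT replicate 4. That last omission left 3 called lower and 2 higher, while calls over all genes rose from 52 to 97. Members that did not pass included 3 ADH6 orthologs, at −1.58, −1.27 and −0.49, the acetyl-CoA synthetase gene ACS1 (−1.02) and an ortholog of ADH4 (−1.13).

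Genes for the uptake and cleavage of maltose and related sugars fell. MAL11 (SAKL0A05676g), whose baker's yeast ortholog is an alpha-glucoside transporter, was at 2.38, 1.76, 3.15 and 3.47 in WT and at −2.47, −4.47, −5.02 and −0.92 in sef1Δ. It was 60.2-fold lower (log2 −5.91, SE 0.81, adjusted p = 0.00685), with a spread in sef1Δ (SD 1.88) wider than in WT (SD 0.77). IMA1 (SAKL0A05654g), an ortholog of an isomaltase, carries the neighbouring locus tag. It was at 3.89, 3.47, 4.08 and 3.85 in WT and at 0.03, −0.13, −0.66 and 0.43 in sef1Δ, 15-fold lower (adjusted p = 9.69e-05, the smallest of the 52). On the other side of MAL11 in tag order, a second IMA1 ortholog (SAKL0A05698g) was at −1.11 and was called only with the replicate block (adjusted p = 0.022). The genes beyond this trio that were tested, CBC2 (−0.27), ARO4 (−0.73), HIS7 (−0.70) and SRM1 (−0.27), were not called.

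Isomaltase orthologs elsewhere in the genome fell as well. IMA5 (SAKL0C00176g) was at 2.02, 1.57, 2.29 and 2.57 in WT and at −0.48, −0.70, −1.79 and −0.55 in sef1Δ (log2 −2.99, SE 0.32, adjusted p = 0.00156). A further IMA5 ortholog (SAKL0A00154g) was at 3.14, 2.47, 3.58 and 3.72 in WT and at 1.16, 0.95, −0.33 and 1.18 in sef1Δ (log2 −2.49, SE 0.38, adjusted p = 0.0135). In both genes sef1Δ replicate 3 was the lowest array, apart from the other 3. The call of SAKL0A00154g was lost without WT replicate 1 (adjusted p = 0.0509). IMA1 SAKL0C02112g was at 1.8, 1.23, 2.37 and 2.55 in WT and at −0.39, 0.03, −1.16 and 0.12 in sef1Δ (log2 −2.33, SE 0.35, adjusted p = 0.012). The brighter probes of SAKL0A05654g, SAKL0C00176g and SAKL0C02112g share sequence with another gene by the array's own naming, so signal can be split between family members. For SAKL0C02112g the other probe gave a larger difference, −4.29.

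Of the 17 tested genes of sugar transport and disaccharide use, 4 were lower and none higher, where 0.494% of all genes tested were lower. The list's median was −0.53, and −0.24 without WT replicate 2 or −0.27 without sef1Δ replicate 3. IMA1 SAKL0A05654g is not counted there because its symbol came only from a strain comparison table. With the replicate block 7 were lower and 1 higher, in a fit that called 2.09% of all genes lower and 3.15% higher. The additional genes were RGT2 (SAKL0B00264g, −3.47), a glucose sensor in baker's yeast, IMA1 SAKL0A05698g, the invertase gene SUC2 (SAKL0D11946g, −1.08) and, in the other direction, the repressor gene RGT1 (SAKL0A09856g, 0.74). RGT2 was at 0.52, −2.41, 1.27 and 0.50 in WT and at −2.83, −5.31, −3.73 and −2.15 in sef1Δ. Replicate 2 was low in both strains, so that the groups overlapped while every pair showed a lower level in sef1Δ. Hexose transporter orthologs HXT1 (−0.53), HXT2 (0.66), HXT3 (−0.53) and HXT4 (0.05) were not called.

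The remaining lower genes had various roles. YLR413W (SAKL0G16236g), uncharacterized, was at 1.36, 1.45, 1.98 and 2.09 in WT and at −0.50, −1.32, −1.70 and −0.26 in sef1Δ (log2 −2.66, SE 0.33, adjusted p = 0.00446). ECM27 (SAKL0F15136g), a putative calcium exchanger, was at −4.45, −3.89, −4.02 and −3.65 in WT and at −6.59, −8.16, −6.74 and −6.18 in sef1Δ. The ECM27 probe was well above background on 7 of the 8 arrays, all but sef1Δ replicate 2, and its difference of −2.92 (adjusted p = 0.00581) was −2.50 without that array. Its call was lost under normexp background correction. IMO32 (SAKL0H09020g), a mitochondrial protein of the hydrolase superfamily, was at 1.52, 1.95, 2.87 and 1.12 in WT and at −0.33, −0.09, −0.10 and 0.42 in sef1Δ (log2 −1.89, adjusted p = 0.0291). It lost its call when any one of 5 arrays was left out, WT replicates 1 and 2 and sef1Δ replicates 1, 3 and 4, the highest adjusted p being 0.11.

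The multidrug ABC transporter gene SNQ2 (SAKL0C11616g) was lower by 2.03-fold (adjusted p = 0.0155) and YBR225W (SAKL0A06930g), uncharacterized, by 1.92-fold (adjusted p = 0.0291). The lower genes included 5 without an ortholog symbol. SAKL0H07018g, a conserved hypothetical gene, was at 4.90, 5.33, 5.56 and 5.71 in WT and at 3.36, 2.74, 2.57 and 3.30 in sef1Δ (log2 −2.38, SE 0.25, adjusted p = 0.00153). SAKL0F16324g (−2.35), SAKL0B05940g (−2.12), annotated as similar to a bacterial regulatory protein of the MerR type, SAKL0F16500g (−1.46) and SAKL0H10428g (−0.92) were the others. The call was lost without some single arrays for SNQ2 (5 arrays), YBR225W, SAKL0F16500g and SAKL0H10428g (6 arrays each), with highest adjusted p of 0.0689, 0.116, 0.112 and 0.0995.

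**Figure D2:**
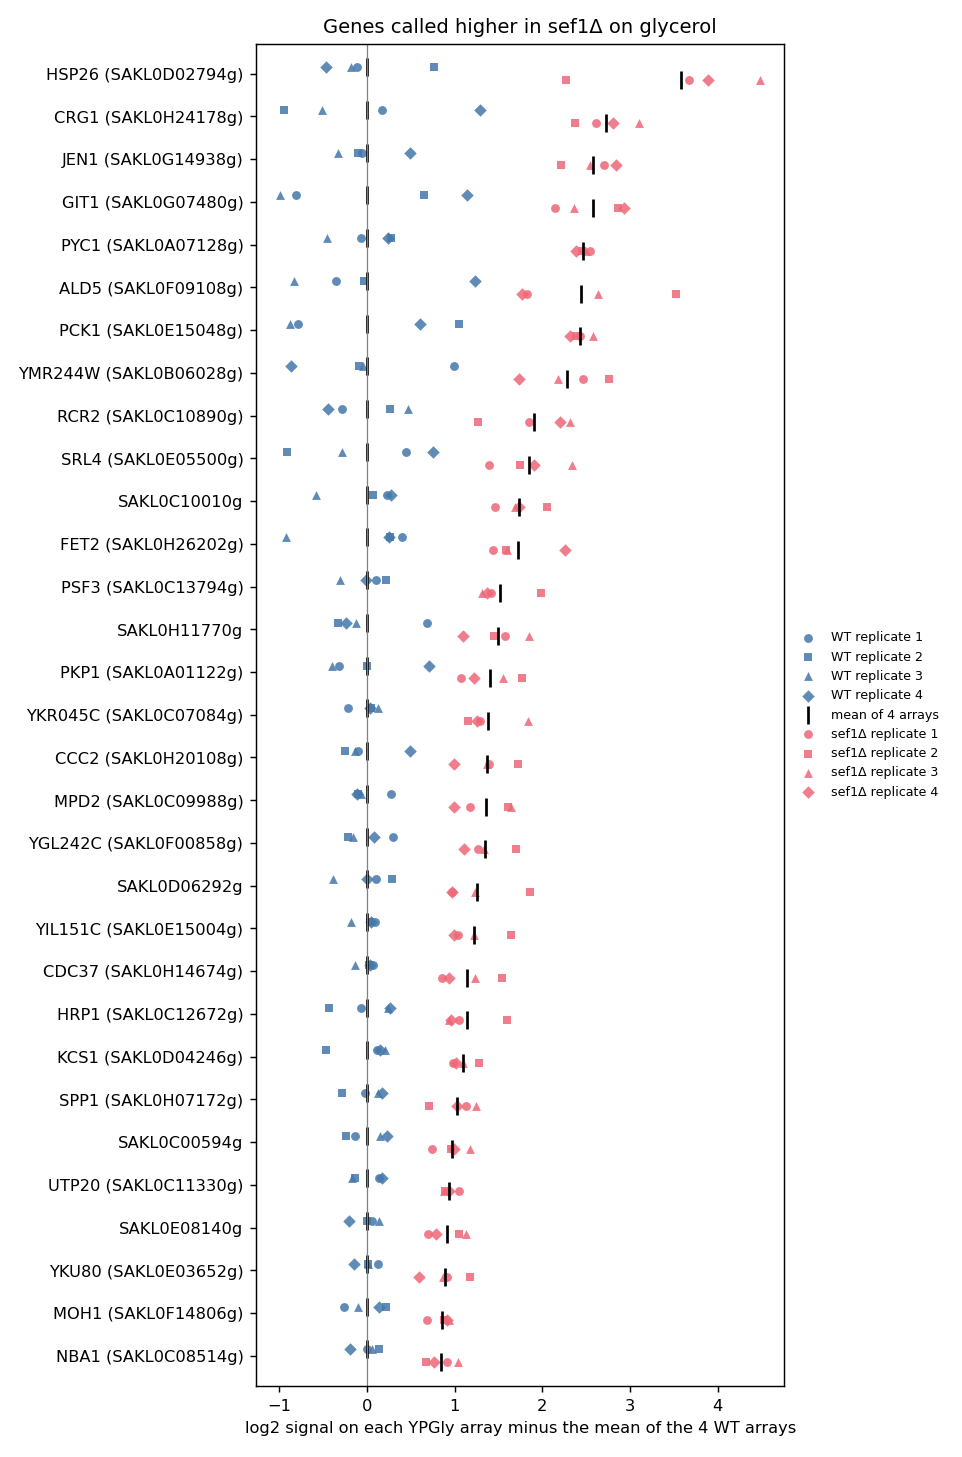
Array levels (log2) of genes called higher in sef1Δ on glycerol. Each point is 1 array, 4 of WT and 4 of sef1Δ per gene, with the mean as a line. For every gene shown the lowest sef1Δ array lay above the highest WT array, and PYC1 had an SD of 0.07 in sef1Δ.

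Among higher genes, both steps from pyruvate to phosphoenolpyruvate were represented. PYC1 (SAKL0A07128g), pyruvate carboxylase, which makes oxaloacetate from pyruvate, was at 1.37, 1.71, 0.97 and 1.67 in WT and at 3.97, 3.88, 3.93 and 3.81 in sef1Δ. PCK1 (SAKL0E15048g), phosphoenolpyruvate carboxykinase, was at 1.69, 3.53, 1.6 and 3.07 in WT and at 4.90, 4.86, 5.05 and 4.79 in sef1Δ. In both genes the sef1Δ arrays lay close together, and for PCK1 the WT arrays were split, with replicates 2 and 4 above replicates 1 and 3. The same split of WT arrays is that by slide row and array brightness. PYC1 was 5.53-fold higher (log2 2.47, SE 0.19, adjusted p = 0.000236) and PCK1 5.38-fold higher (log2 2.43, SE 0.41, adjusted p = 0.0198). The PYC1 call held without each single array (highest adjusted p = 0.00288), while that of PCK1 was lost without WT replicate 1 or sef1Δ replicate 1, 3 or 4 (highest adjusted p = 0.082).

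The 8 tested genes of gluconeogenesis and the glyoxylate cycle had a median of 1.61, beside 0.03 for all genes tested, with these 2 called higher, where 0.729% of all genes tested were higher, and none lower. With the replicate block the malate synthase gene MLS1 (SAKL0E10846g, 1.95, adjusted p = 0.045) and the fructose-1,6-bisphosphatase gene FBP1 (SAKL0H03740g, 1.27, adjusted p = 0.034) were also called. MLS1 was at 0.53, 2.10, 0.06 and 2.86 in WT and at 3.41, 3.53, 3.43 and 2.97 in sef1Δ. FBP1 was at 1.86, 2.75, 1.84 and 3.16 in WT and at 4.05, 3.32, 3.55 and 3.77 in sef1Δ. For both, as for PCK1, WT replicates 2 and 4, the WT arrays of slide row 2, were the higher WT arrays and the groups did not overlap. The isocitrate lyase gene ICL1 (2.16) did not pass in either fit (adjusted p = 0.051 with the block), nor did the succinate-fumarate carrier gene SFC1 (0.63), the cytosolic malate dehydrogenase gene MDH2 (−0.55) or ICL2 (−0.57). Without WT replicate 4 the list had 5 genes called higher, while higher calls over all genes rose from 31 to 59, and without sef1Δ replicate 2 it had 2, with a median of 1.64. The list's median within pairs was 2.40, 0.95, 2.34 and 0.07 for replicates 1 to 4.

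JEN1 (SAKL0G14938g), the ortholog of a permease for lactate and pyruvate, was at 1.77, 1.72, 1.49 and 2.31 in WT and at 4.52, 4.04, 4.37 and 4.66 in sef1Δ. It was 5.97-fold higher (log2 2.58, SE 0.22, adjusted p = 0.000398) and kept its call without each single array. The other tested JEN1 ortholog (SAKL0F02178g) was at −1.31 and was not called in either fit. ALD5 (SAKL0F09108g), a mitochondrial aldehyde dehydrogenase, was at −4.47, −4.14, −4.95 and −2.88 in WT and at −2.28, −0.59, −1.47 and −2.35 in sef1Δ (log2 2.44, SE 0.49). Its adjusted p of 0.0499 lay at the threshold, and the call was lost without any one of 6 arrays (all but WT replicate 4 and sef1Δ replicate 2, highest adjusted p = 0.167). The D-lactate dehydrogenase gene DLD1 (SAKL0F11704g, 1.18) was called only with the block (adjusted p = 0.0082). PKP1 (SAKL0A01122g), a mitochondrial kinase that inhibits pyruvate dehydrogenase in baker's yeast, was at −0.42, −0.10, −0.50 and 0.61 in WT and at 0.97, 1.66, 1.45 and 1.12 in sef1Δ (log2 1.40, SE 0.27, adjusted p = 0.0354). That call too was lost without any one of the same 6 arrays, with a highest adjusted p of 0.133.

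HSP26 (SAKL0D02794g), a small heat shock protein that binds unfolded proteins, showed the largest rise. It was at −1.27, −0.39, −1.34 and −1.61 in WT and at 2.52, 1.12, 3.34 and 2.74 in sef1Δ, 12-fold higher (log2 3.58, SE 0.44, adjusted p = 0.00446). sef1Δ replicate 2 was the lowest sef1Δ array and WT replicate 2 the highest WT array, so the difference was smallest in that pair, and without sef1Δ replicate 2 it was 4.02. On glucose, replicate 2 was high in both strains, at 3.28 in WT and 3.25 in sef1Δ, while the other glucose arrays lay between −6.11 and −3.09, 1 of them (in WT) not well above background. A fit that took the spread from all 16 arrays therefore did not call HSP26 (adjusted p = 0.348). Of 19 tested heat shock and chaperone genes 2 were higher (beside 0.729% of all genes tested) and none lower, with a median of 0.26 that ran from 0.18 without sef1Δ replicate 2 to 0.41 without sef1Δ replicate 4 or WT replicate 2. The second was the Hsp90 co-chaperone gene CDC37 (SAKL0H14674g, 1.14, adjusted p = 0.0155), whose other probe gave 0.14. With the block SSA4 (SAKL0F12606g, 0.71) and HSP42 (SAKL0H14454g, 0.97) were called as well, in a fit that called 3.15% of all genes higher. Values for HSP82 (0.14), HSP104 (0.58) and HSP12 (−0.22) did not pass.

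In phosphate metabolism GIT1 (SAKL0G07480g), a permease for glycerophosphodiesters in baker's yeast, was at −2.58, −1.13, −2.77 and −0.64 in WT and at 0.37, 1.08, 0.58 and 1.16 in sef1Δ. In both strains replicates 2 and 4 were higher than 1 and 3, which is also the split by slide row. GIT1 was 5.96-fold higher (log2 2.58, SE 0.46, adjusted p = 0.0272, and 0.000995 with the block), a call lost without any one of WT replicates 1 and 3 and sef1Δ replicates 1, 3 and 4 (highest adjusted p = 0.0968). KCS1 (SAKL0D04246g), an inositol hexakisphosphate kinase, was higher by 2.14-fold (adjusted p = 0.0225), and its call was lost without the same 5 arrays (highest adjusted p = 0.0856). With the block SPL2 (SAKL0E12144g, 1.54), a regulator of phosphate transporters, and PHO86 (SAKL0C07106g, 0.62), needed for the export of a phosphate transporter from the endoplasmic reticulum, were also called. That fit called 3.15% of all genes higher. The 17 tested phosphate genes had a median of 0.34 and a lowest value of −0.16 (PHO3), and 10 of them were higher in sef1Δ in all 4 pairs, against 18.5% of all genes tested. The main phosphate transporter gene PHO84 (0.63) was not called.

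Metal transport genes moved in both directions. CCC2 (SAKL0H20108g), a copper pump that supplies multicopper ferroxidases in the secretory pathway, was at −1.72, −1.87, −1.76 and −1.13 in WT and at −0.23, 0.11, −0.25 and −0.62 in sef1Δ (log2 1.37, SE 0.22, adjusted p = 0.0155). FET2 (SAKL0H26202g), weakly similar to the multicopper ferroxidase FET3, was at −1.93, −2.07, −3.26 and −2.08 in WT and at −0.89, −0.75, −0.74 and −0.07 in sef1Δ (log2 1.72, SE 0.31, adjusted p = 0.0284). ARN4 (SAKL0E00132g), similar to a siderophore transporter, was lower, at −0.23, −1.56, 0.07 and −0.75 in WT and −2.33, −2.53, −2.33 and −2.24 in sef1Δ (log2 −1.74, SE 0.31, adjusted p = 0.0272). WT replicate 3 was the lowest array for FET2 and the highest for ARN4. Each of the 3 calls was lost without any one of 5 single arrays, with highest adjusted p of 0.0689 for CCC2, 0.0961 for FET2 and 0.103 for ARN4. Of the 20 tested iron uptake genes only ARN4 and FET2 were called (10%, beside 1.22% of all genes tested), with a list median of 0.04 that lay between −0.04 and 0.15 when single arrays were left out. The ferroxidase gene FET3 (0.47) and its permease partners FTR1 (−0.47 and 0.61 for 2 orthologs) were not called.

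Other genes called higher were CRG1 (SAKL0H24178g), a methyltransferase gene, at −3.76, −4.88, −4.45 and −2.64 in WT and −1.32, −1.56, −0.83 and −1.13 in sef1Δ (log2 2.72, SE 0.42, adjusted p = 0.0139). YMR244W (SAKL0B06028g), uncharacterized, was at −0.65, −1.74, −1.69 and −2.51 in WT and at 0.82, 1.11, 0.53 and 0.09 in sef1Δ (log2 2.29, SE 0.37, adjusted p = 0.0155). RCR2 (SAKL0C10890g), a vacuolar protein, was at −1.73, −1.19, −0.98 and −1.90 in WT and at 0.40, −0.18, 0.86 and 0.76 in sef1Δ (log2 1.91, SE 0.28, adjusted p = 0.0107). In all 3 genes every sef1Δ array lay above every WT array. Without WT replicate 1 the call was lost for RCR2 (adjusted p = 0.05003) and for CRG1, which also lost it without sef1Δ replicate 3 (highest adjusted p = 0.0572). YMR244W lost it without WT replicate 2 or 3 or sef1Δ replicate 1 or 3 (highest adjusted p = 0.0689).

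SRL4 (SAKL0E05500g) was at −1.37, −2.73, −2.10 and −1.06 in WT and at −0.42, −0.07, 0.52 and 0.09 in sef1Δ (log2 1.84, SE 0.36, adjusted p = 0.0374). PSF3 (SAKL0C13794g), a subunit of the GINS complex of DNA replication, was at −0.63, −0.52, −1.04 and −0.74 in WT and at 0.69, 1.25, 0.58 and 0.64 in sef1Δ (log2 1.52, SE 0.20, adjusted p = 0.00562). YKR045C (SAKL0C07084g), uncharacterized, was at −2.84, −2.58, −2.50 and −2.59 in WT and at −1.34, −1.47, −0.79 and −1.37 in sef1Δ (log2 1.38, SE 0.19, adjusted p = 0.00658). PSF3 and YKR045C kept their calls without each single array, whereas SRL4 lost its call without any one of 6 arrays (highest adjusted p = 0.127). SAKL0C10010g, a conserved hypothetical gene, and MPD2 (SAKL0C09988g), a protein disulfide isomerase relative, carry adjacent locus tags and were both higher, by 1.73 (adjusted p = 0.00542) and 1.35 (adjusted p = 0.00919).

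The remaining 12 higher genes changed by 0.85 to 1.49 on the log2 scale. They included HRP1 (1.14), which takes part in the 3′ end formation of mRNA, SPP1 (1.03), a subunit of the complex that methylates histone H3, UTP20 (0.94), needed for small ribosomal subunit assembly, YKU80 (0.89), a subunit of the Ku complex, and NBA1 (0.85). Of all called genes, 16 of the 31 higher and 6 of the 21 lower lost their call when any one of 5 or more arrays was left out in turn.

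**Figure D3:**
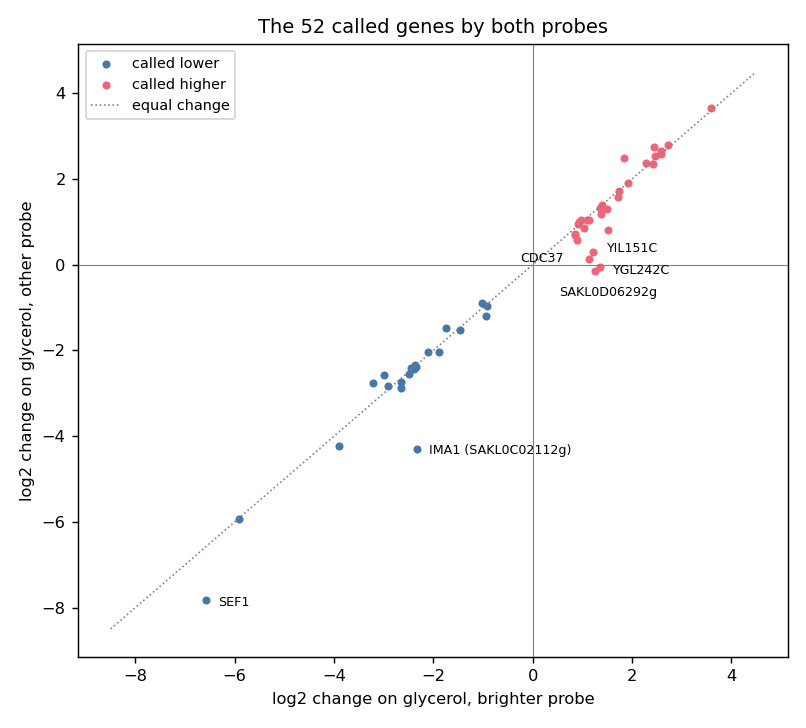
Difference between sef1Δ and WT on glycerol (log2) by the brighter probe of each called gene (horizontal axis) and by its other probe (vertical axis). Each point is 1 of the 52 called genes, and the dotted line marks equal change. YGL242C and SAKL0D06292g lay just below 0 by the other probe, and YIL151C and CDC37 just above.

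A separate probe was available for each of the 52 genes and was not used to call them. It was read on the same arrays, so it checks the brighter probe and not the cultures. All 21 lower genes were lower by it too, with 19 called in their own right, against 1.04% of all other probes tested. Of the 31 higher genes 29 were higher and 16 were called. The exceptions were YGL242C (SAKL0F00858g, 1.35 by the brighter probe and −0.055 by the other) and SAKL0D06292g (1.26 and −0.15). YIL151C (SAKL0E15004g) gave 1.22 and 0.30, CDC37 1.14 and 0.14, PSF3 1.52 and 0.82, and YKU80 0.89 and 0.57. By the other probe the difference was larger for IMA1 SAKL0C02112g (−4.29) and SRL4 (2.49). The medians by the other probe were −2.43 for the lower and 1.30 for the higher genes.

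**Figure D4:**
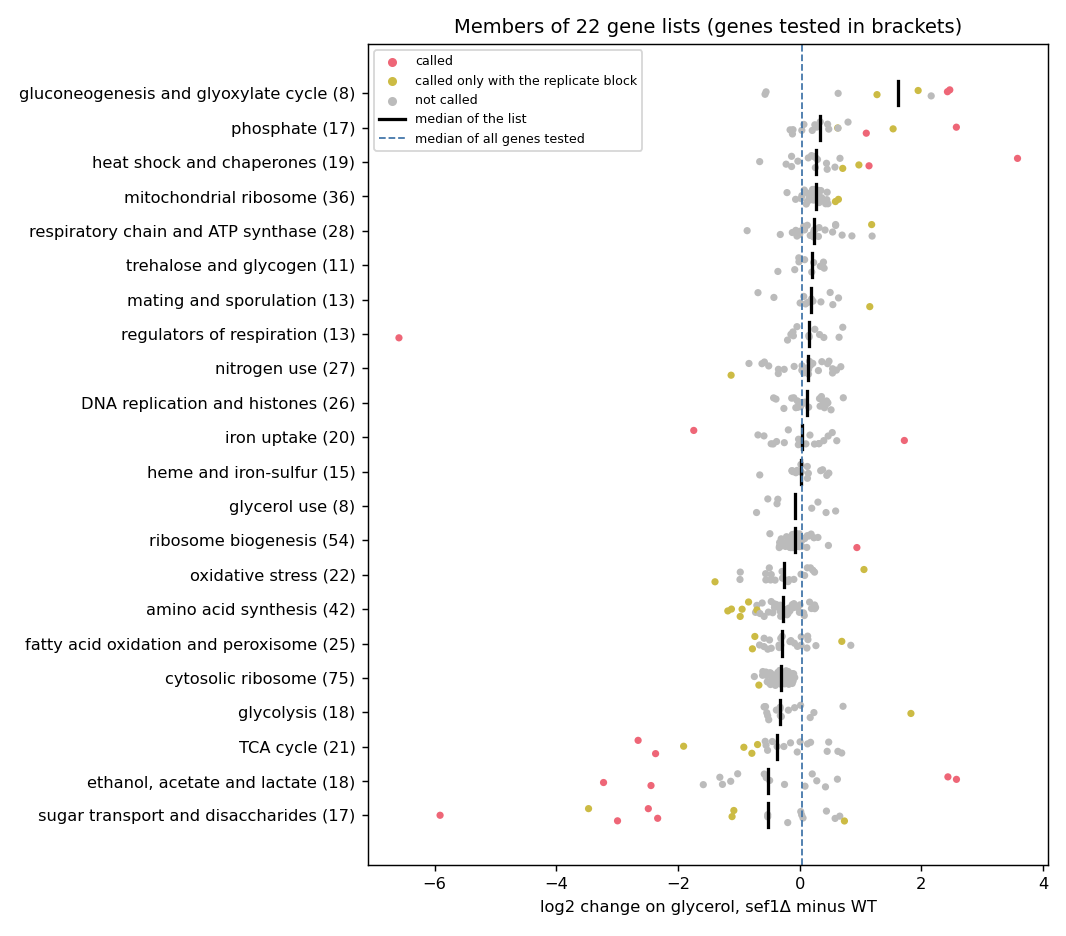
Difference between sef1Δ and WT on glycerol (log2, horizontal axis) of the tested members of 22 gene lists (vertical axis, number of genes in brackets). Each point is 1 gene, coloured by whether it was called, called only with the replicate block or not called, with the list's median as a black bar and that of all genes tested as a dashed line. Medians ran from −0.53 for sugar transport and disaccharides to 1.61 for gluconeogenesis and the glyoxylate cycle.

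In some large groups most members lay on 1 side of 0 without passing the test. All 75 tested cytosolic ribosomal protein genes were below 0, from −0.75 (RPL38, which has 3 sef1Δ values because 1 spot was left out) to −0.08 (RPS27B), with a median of −0.31. Across all genes tested 45.5% were below 0. None of the 75 was called, and 48 were lower in all 4 pairs, against 12.4% of all genes. With the block 1 of them (RPL36B, −0.67) was called lower, in a fit that called 2.09% of all genes lower. Without sef1Δ replicate 2 the list had 73 of 75 genes below 0, and on glucose its median was 0.09. Mitochondrial ribosomal protein genes lay on the other side. Of 36 tested, 2 were below 0, the median was 0.26 and none was called. With the block MRPL50 (0.59) and MRPL27 (0.64) were called higher, beside 3.15% of all genes. The median was 0.44 without sef1Δ replicate 2 and 0.12 without sef1Δ replicate 3 or WT replicate 2. On glucose it was 0.17, with 4 of the 36 below 0.

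The respiratory chain and ATP synthase list (28 tested) had a median of 0.23 and no call without the block. Within the pairs the median was 0.47, 0.12, 0.52 and −0.26, and it ran from 0.14 without WT replicate 2 to 0.40 without WT replicate 4. Without sef1Δ replicate 2, 1 member was called lower and 2 higher, while calls over all genes rose from 52 to 132. The list's members ran from an ortholog of the external NADH dehydrogenase NDE2 (SAKL0E05302g, −0.86) to an ortholog of the L-lactate dehydrogenase CYB2 (SAKL0G16852g, 1.19). NDI1, the internal NADH dehydrogenase of baker's yeast, had 2 orthologs, SAKL0C09438g (0.86) and SAKL0D01056g (−0.12), neither of them called. With the block only DLD1 passed. For glycerol use itself, 8 tested genes had a median of −0.08 (−0.15 to 0.01 when single arrays were left out) and none was called in either fit. Among them were the glycerol kinase gene GUT1 (0.20), the glycerol 3-phosphate dehydrogenase gene GUT2 (0.59) and the glycerol transporter ortholog STL1 (0.43).

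Glycolysis (18 tested) had a median of −0.32 and no call. The median ran from −0.65 without sef1Δ replicate 2, where 2 were called lower and 1 higher, to −0.12 without sef1Δ replicate 3, and within the pairs it was −0.55, 0.35, −0.43 and −0.74. Calls over all genes rose from 52 to 132 without sef1Δ replicate 2. With the block a single member was called, TDH3 SAKL0H24926g, a glyceraldehyde 3-phosphate dehydrogenase ortholog that was higher (1.83, adjusted p = 0.016 with the block), while 2 other TDH3 orthologs were at −0.58 and 0.02. Amino acid synthesis (42 tested) had a median of −0.28, no call, and 6 genes lower with the block, from LEU9 (SAKL0F05170g, −1.18) to LYS21 (SAKL0F10032g, −0.70). That fit called 2.09% of all genes lower and 3.15% higher. The median of this list was −0.45 without sef1Δ replicate 2, with 2 called lower (48 over all genes), and −0.17 without WT replicate 2. In fatty acid oxidation and peroxisomes (25 tested, median −0.29, and −0.14 without WT replicate 4) the block fit called FAA1 (−0.78) and FOX2 (−0.74) lower and PEX32 (0.69) higher. In oxidative stress (22 tested, median −0.26, and −0.12 without sef1Δ replicate 2) it called OYE2 (−1.39) lower and OYE3 (1.06) higher. In nitrogen use (27 tested, median 0.13, and 0.03 without sef1Δ replicate 3) it called GDH2 (−1.13), the NAD-dependent glutamate dehydrogenase, lower.

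As checks of cell state, mating and sporulation (13 tested) had a median of 0.19 with no call and SPS1 (1.15) called with the block, and DNA replication and histones (26 tested) had a median of 0.12 with no call in either fit. Heme and iron-sulfur cluster genes (15 tested, median 0.03) and trehalose and glycogen genes (11 tested, median 0.20) had no call in either fit. Of 54 ribosome biogenesis genes UTP20 was called higher, beside a median of −0.08 that was −0.34 without WT replicate 4 and 0.06 without WT replicate 1. Among the lists of this paragraph, the medians of the trehalose, heme and DNA replication lists also moved with single arrays, to 0.06 to 0.35, −0.04 to 0.23 and 0.03 to 0.34. Among 13 regulators of respiratory genes SEF1 was the only call, beside a median of 0.15 that was 0.01 without sef1Δ replicate 2, and the activators CAT8 (−0.11), ADR1 (0.65) and RTG3 (−0.14) were not called.

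The study mapped Sef1 on chromatin by ChIP-seq of a tagged protein, and genes it assigned to a peak formed a list that does not depend on these arrays. Of 657 such genes that were tested, 16 were called (2.44%, beside 1.22% of all genes tested), 6 lower and 10 higher, and the list's median was 0.03, as for all genes. When single arrays were left out it lay between −0.003 and 0.054, and that of all genes between 0.010 and 0.059. The 6 lower genes were both ADH3 orthologs, IDH1, IDH2, SAKL0H07018g and SAKL0B05940g. The 10 higher genes were CRG1, PYC1, ALD5, PCK1, YMR244W, SAKL0C10010g, MPD2, SPP1, SAKL0C00594g and YKU80. None of the called maltose genes was on the list. With the block 60 bound genes were called (9.13%, beside 5.24%). Among the 50 tested genes of the strongest peaks, 3 were called, all lower (IDH1, IDH2 and SAKL0B05940g), with a median of −0.16. The median was −0.02 without WT replicate 4, with 3 lower and 1 higher, and within the pairs it was 0.01, 0.02, −0.09 and −0.52. Leaving out WT replicate 4 raised calls over all genes from 52 to 97. With the block 6 were lower, beside 2.09% of all genes, KGD2, ACO1 and BRR6 (SAKL0F00682g, −1.03) being added.

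Genes that the study found induced in WT by low iron, on other arrays, formed a further list. Of 88 tested, 3 were called lower and 7 higher (11.4% in all, beside 1.22%), with a median of 0.29. The lower genes were IMA5 SAKL0A00154g, SAKL0F16324g and SAKL0F16500g, and the higher genes were GIT1, RCR2, SAKL0C10010g, PSF3, YIL151C, YKU80 and MOH1. None of these 10 carries the symbol of an iron transporter. With the block 17 were higher and 3 lower, in a fit that called 3.15% of all genes higher and 2.09% lower.

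**Figure D5:**
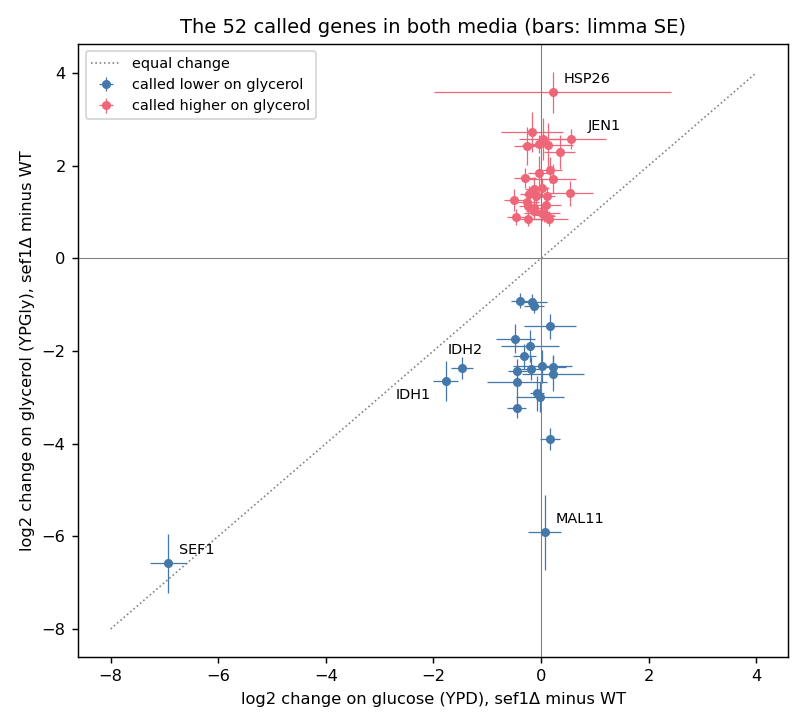
Difference between sef1Δ and WT on glucose (log2, horizontal axis) and on glycerol (log2, vertical axis) for the 52 genes called on glycerol, each point 1 gene with bars of 1 limma standard error and the dotted line equal change. SEF1, IDH1 and IDH2 lay far from 0 on both axes, and most other genes lay near 0 on glucose.

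The same strains on glucose gave 3 called genes (0.0705% of those tested), SEF1, IDH1 and IDH2, all among the genes called lower on glycerol. IDH1 was at 2.10, 2.01, 1.82 and 2.92 in WT on glucose and at 0.47, 0.27, 0.31 and 0.73 in sef1Δ (log2 −1.77, SE 0.23, adjusted p = 0.0417). IDH2 was at 1.88, 2.25, 1.85 and 2.68 in WT on glucose and at 0.51, 0.83, 0.51 and 0.92 in sef1Δ (log2 −1.47, SE 0.20, adjusted p = 0.0431). The difference of the sef1Δ effect between media was −0.89 for IDH1 (SE 0.52, adjusted p = 0.622) and −0.90 for IDH2 (SE 0.32, adjusted p = 0.317), which the test did not separate from 0. The median difference on glucose was −0.19 for the 21 genes lower on glycerol and −0.03 for the 31 higher genes.

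A test of the sef1Δ effect between media includes the glycerol difference by which the 52 genes were chosen. The choice itself therefore raises the share of them that pass. Tested directly over all 16 arrays, the sef1Δ effect differed between glycerol and glucose for 25 of the 52 genes, 9 lower and 16 higher, beside 0.658% of all genes tested. MAL11, IMA1 SAKL0A05654g, IMA5 SAKL0C00176g, both ADH3 orthologs, PYC1 and PCK1 were among them, whereas IMA5 SAKL0A00154g (−2.70, adjusted p = 0.171) and IMA1 SAKL0C02112g (−2.36, adjusted p = 0.228) did not pass. For MAL11 the fitted difference of effects was −5.98. On glucose the MAL11 probe was well above background on 1 of 4 WT arrays and 3 of 4 sef1Δ arrays, at levels of −6.74 to −5.41, so no difference between strains could be read there and the fitted value is limited by the background. For IMA1 SAKL0A05654g the difference of effects was −4.07 (adjusted p = 2.21e-06), and its glucose means were −1.97 in WT and −1.81 in sef1Δ. ADH3 SAKL0E02838g stood at 3.15 in WT and 2.70 in sef1Δ on glucose, and at 3.60 and 0.37 on glycerol (difference of effects −2.77, adjusted p = 6.49e-05). SAKL0B08184g stood at 4.24 and 3.80 on glucose, and at 5.53 and 3.09 on glycerol (difference of effects −2.0, adjusted p = 0.00517).

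PYC1 was at 2.51 in WT and 2.48 in sef1Δ on glucose, and at 1.43 and 3.90 on glycerol, so that its level on glycerol was below that on glucose in WT and above it in sef1Δ (difference of effects 2.50, SE 0.26, adjusted p = 6.49e-05). PCK1 was at −3.63 and −3.90 on glucose, and at 2.47 and 4.90 on glycerol, high on glycerol in both strains (difference of effects 2.70, SE 0.51, adjusted p = 0.0186). ALD5 was at 2.56 and 2.68 on glucose and at −4.11 and −1.67 on glycerol, and JEN1 at −1.21 and −0.65 on glucose and 1.82 and 4.40 on glycerol. For ALD5 (difference of effects 2.31, adjusted p = 0.279) and JEN1 (2.02, adjusted p = 0.337) the difference between media did not pass. JEN1 on glucose included 1 sef1Δ array at 1.54, replicate 4, while the other 3 lay between −1.86 and −0.96. With the replicate block 33 of the 52 differences passed, 11 lower and 22 higher, beside 1.34% of all genes tested. The share among the 52 is again raised by their choice on glycerol.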

How the data were processed

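By the study's methods and the submitters' processing notes, cDNA primed with oligo-dT carried a single dye, was hybridized to custom Agilent slides of 8 arrays, and was quantified with Agilent Feature Extraction 10.5.1.1. The main input was the deposited processed signal of every spot, a linear intensity after background subtraction and spatial detrending. Log2 values scaled by the authors, in the deposited matrix, served as an alternative. Other deposited columns are scanner flags given as codes. Of 11156 spots 10620 were gene probes, and 26 non-uniform spots on the glycerol arrays were left out.

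Signals were scaled to each array's 75th percentile and put on the log2 scale. The brighter of 2 probes stood for a gene, and genes above a processed signal of 200 were tested with lmFit and eBayes of limma 3.58.1 in R 4.3.3, on the 8 glycerol arrays without covariates. The difference of effects between media was an interaction term over all 16 arrays. The methods' unpaired t-test at an uncorrected p of at most 0.05 and 1.5-fold was an alternative, as were other scalings, filters, probes, blocks and the omission of each array. All adjusted p-values are limma's with Benjamini-Hochberg adjustment.

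Groups and replicate numbers came from the sample titles. The study calls replicates biological repeats. Deviations from group means correlated at 0.207 to 0.702 between same-numbered WT and sef1Δ arrays and at −0.658 to 0.324 between others. The numbers were taken to pair the arrays, which these values show clearly only for replicates 2 and 3. Replicates 1 and 2 were on 1 slide and replicates 3 and 4 on another. Array number, 4 per group, limits the precision.

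Symbols and gene lists came from the study's ortholog, peak and low-iron tables, the ortholog table held in part. List membership used no symbol taken from the strain comparison tables alone, and those tables' fold changes and p-values were not used. Named were SEF1, every called gene, the 21 TCA cycle genes, list members called with or without the block, and each list's lowest and highest member, with array values for the 12 lower and 15 higher genes of largest change that have a symbol and a probe well above background on all 8 arrays. Other genes with values (ECM27, SAKL0H07018g, uncalled members of the lists and genes beside MAL11) were chosen after their values were seen. The comparison, its lists and its rules were chosen with earlier results of these data known. No genome sequence or annotation was used.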

Additional observations from a re-analysis of the deposited data

Results flagged for a closer look

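Within a group of 4 arrays, the highest or the lowest array stood apart from the other 3 (by Dixon's 95% critical value) in 26 of 245 groups examined over 123 named genes, 10.6%, where chance gives about 1 in 20. Most of these, 16, fell on sef1Δ replicate 2. The array was high for SUC2 (5.69, the others 4.00 to 4.04), GPM1 (4.89, the others 4.00 to 4.03), the NADH dehydrogenase ortholog NDE2 (0.99, the others −0.51 to −0.49), PHO3 (−0.30, the others −2.67 to −2.31), the G1 cyclin ortholog CLN2 (2.21, the others −0.59 to −0.44), LYS2 (1.42), PSF3 (1.25) and RGT1 (0.11). It was low for IDH1 (−1.59), CIT1 (2.98), MDH2 (2.28), MDH3 (2.24), LSC1 (2.11), MRPL50 (−1.87), the carnitine acetyltransferase ortholog YAT2 (0.31) and TDH3 SAKL0H24926g (1.81, the others 2.94 to 3.12).

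WT replicate 4 stood apart, always as the highest WT array, for ACO1 (4.90), ICL2 (2.97, the others 1.11 to 1.29), SDH2 (3.84, the others 2.87 to 2.93), IDP3 (4.30, the others 2.57 to 2.85) and PHO86 (0.20). The other flags were sef1Δ replicate 3 for IMA5 SAKL0C00176g (−1.79) and IMA5 SAKL0A00154g (−0.33), WT replicate 3 for FET2 (−3.26), WT replicate 1 for MPD2 (−1.19) and WT replicate 2 for KCS1 (−2.90).

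The sef1Δ effect differed between glycerol and glucose by limma's interaction term for 25 named genes. Negative differences were found for MAL11 (−5.98, limited by glucose levels mostly not well above background in WT), IMA1 SAKL0A05654g (−4.07), IMA5 SAKL0C00176g (−2.97), ECM27 (−2.84), ADH3 SAKL0E02838g (−2.77), SAKL0F16324g (−2.57), SAKL0H07018g (−2.19), ADH3 SAKL0B08184g (−2.0) and SAKL0B05940g (−1.80). Positive differences were found for PCK1 (2.70), PYC1 (2.50), SAKL0C10010g (2.02), SAKL0D06292g (1.76), RCR2 (1.74), SAKL0H11770g (1.63), YKR045C (1.61), PSF3 (1.5), YIL151C (1.48), CCC2 (1.47), MPD2 (1.45), HRP1 (1.38), YKU80 (1.35), KCS1 (1.23), YGL242C (1.23) and SPP1 (1.15).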

How the results depend on the processing

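Among the 52 genes only SEF1 and ECM27 had a brighter probe not well above background on some glycerol array. The main counts of 21 lower and 31 higher genes became 89 and 134 with the replicate block, 172 and 253 with array weights, 45 and 72 with the spread taken from all 16 arrays, 90 and 152 by the methods' t-test, 12 and 15 by that test after adjustment, and 41 and 74 with replicates 1, 3 and 4 alone, a setting chosen after seeing the data. The other probe called 25 genes lower and 19 higher. Leaving out single arrays gave 14 to 48 lower and 10 to 84 higher genes, the most without sef1Δ replicate 2 (48 and 84, including all 52) and then without WT replicate 4 (38 and 59). Fewest were called lower without WT replicate 1 and higher without sef1Δ replicate 3.

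Over the 1504 values of the 52 genes under single settings, 1278 kept direction and call, 224 lost the call and 2 reversed, YGL242C (−0.055) and SAKL0D06292g (−0.15), both by the other probe. The block changed no call among the 52 genes, and it called 5.24% of all genes tested. Called list members with the block numbered 1 in the respiratory chain, cytosolic ribosome, glycolysis, nitrogen use and mating lists, 2 in the mitochondrial ribosome and oxidative stress lists, 3 in fatty acid oxidation, 4 in heat shock, gluconeogenesis and phosphate, 6 in the TCA cycle (4 after quantile normalization), amino acid synthesis and the 50 strongest peaks, 8 in sugar transport, 20 in the low-iron list and 60 among bound genes.

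Leaving out single arrays gave 0 to 1 called members in the cytosolic ribosome, mitochondrial ribosome, ribosome biogenesis, oxidative stress, fatty acid oxidation, nitrogen use, glycerol use and mating lists, 0 to 2 in amino acid synthesis and iron uptake, 0 to 3 in the respiratory chain, glycolysis and phosphate lists, 1 to 4 in heat shock and the TCA cycle, 1 to 5 in gluconeogenesis, 2 to 5 among the strongest peaks, 4 to 18 in the low-iron list and 9 to 41 among bound genes. Over all 4255 genes tested, the same omissions gave 25 calls (without sef1Δ replicate 3) to 132 (without sef1Δ replicate 2). The causes were not tested.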

Other observations

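By the chromosome letter in the locus tags, the called genes were spread over all 8 chromosomes. Chromosome C held 3 lower and 9 higher genes among 501 tested (2.40%), and chromosome G held 2 lower and 2 higher among 670 (0.597%), beside 1.22% of all genes tested. On chromosome D none was lower and 3 were higher among 458. No test of position was made.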
